A study of Mus musculus with 98 samples.

Results

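The CC chemokine genes Ccl2, Ccl3, Ccl4, Ccl5 and Ccl7 and the receptor genes Ccr1, Ccr2 and Ccrl2 were followed in mouse blood leukocytes and spleen. They were chosen by name: every probe set of the array whose sole symbol in the platform's gene table was one of these 8 was taken, which gave 11 of 22626 probe sets and 8 of 12393 named genes. Ccr2 has 3 probe sets, Ccr1 has 2 and the other genes have 1 each. The study measured total RNA on 98 one-colour Affymetrix arrays, 64 of blood leukocytes and 34 of spleen. Its 3 mouse models were burn injury, trauma-hemorrhage, and infusion of LPS, the lipopolysaccharide of bacterial outer membranes. In blood, the labels give the letter E to injured or infused mice and the letter A to sham mice. All spleen titles carry E, the burn spleen labels speak of spleen leukocytes and the other spleen labels of spleen. Each title also carries a code, c or x, which the labels do not explain and which is compared here as coded. In burn blood there were 4 x against 5 c arrays with letter A, and 5 x against 6 c arrays with letter E. In LPS blood each letter had 5 x against 6 c arrays. Trauma-hemorrhage blood had 5 of each code with letter A and 6 of each with letter E. The spleen counts were 6 x against 5 c for burn, 6 against 6 for LPS, and 5 against 6 for trauma-hemorrhage. Strain, age, dose, time after injury and pooling are not given in the sources used here. The labels do not tie arrays to individual mice, so the p-values reflect only the spread among these samples, and that spread may be technical.

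CC chemokines are small secreted proteins with a pair of adjacent cysteines that guide leukocytes through receptors coupled to inhibitory G proteins. Ccl3 and Ccl4 (MIP-1 alpha and beta) are made quickly by activated macrophages and lymphocytes, Ccl5 (RANTES) is typical of T and NK cells, and Ccl2 and Ccl7 (MCP-1 and MCP-3) draw monocytes out of bone marrow through Ccr2. Ccr1 binds Ccl3, Ccl5 and Ccl7, and Ccrl2 is an atypical receptor that binds the attractant chemerin without classical signaling and is induced in activated neutrophils and macrophages.

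The promoters of the 4 members that RefSeq's table holds (build GRCm38.p6) are shown because their genes moved in different directions. Each runs from 250 bases before to 50 bases after the start site, 5′ to 3′ on the strand of the gene. Ccrl2 lies at chr9:111057469-111057768 (minus strand, the most upstream of 3 listed starts), Ccr1 at chr9:123968643-123968942 (minus), Ccr2 at chr9:124101933-124102232 (plus) and Ccl3 at chr11:83649329-83649628 (minus). Capitals mark matches, on either strand, to the kappa-B motif or to the C/EBP motif TTNNGNAA.
Ccrl2 promoter: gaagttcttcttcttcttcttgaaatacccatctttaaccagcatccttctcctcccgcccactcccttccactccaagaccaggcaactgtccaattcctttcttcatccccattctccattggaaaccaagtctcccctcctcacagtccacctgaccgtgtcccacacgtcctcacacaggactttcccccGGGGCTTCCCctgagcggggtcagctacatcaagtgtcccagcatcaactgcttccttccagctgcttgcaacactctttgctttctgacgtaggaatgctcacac
Ccr1 promoter: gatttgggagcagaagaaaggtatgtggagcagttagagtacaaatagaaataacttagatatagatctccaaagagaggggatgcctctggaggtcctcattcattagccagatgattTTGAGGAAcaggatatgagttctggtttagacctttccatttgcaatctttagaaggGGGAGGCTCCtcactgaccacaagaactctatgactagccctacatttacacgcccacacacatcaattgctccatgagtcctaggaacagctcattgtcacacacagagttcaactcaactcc
Ccr2 promoter: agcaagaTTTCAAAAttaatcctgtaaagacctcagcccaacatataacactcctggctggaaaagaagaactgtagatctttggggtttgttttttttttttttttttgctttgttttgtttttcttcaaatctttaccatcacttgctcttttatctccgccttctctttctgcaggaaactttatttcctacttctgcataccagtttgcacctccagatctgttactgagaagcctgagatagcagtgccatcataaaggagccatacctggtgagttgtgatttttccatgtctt
Ccl3 promoter: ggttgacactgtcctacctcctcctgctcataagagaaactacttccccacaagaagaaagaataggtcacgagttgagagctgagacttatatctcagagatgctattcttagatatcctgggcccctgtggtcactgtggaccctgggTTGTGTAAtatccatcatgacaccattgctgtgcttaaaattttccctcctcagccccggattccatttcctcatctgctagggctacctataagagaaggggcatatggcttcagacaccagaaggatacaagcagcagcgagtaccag
The Ccrl2 promoter held a kappa-B match that starts at position -56 from the start site and reads as a match on both strands, and the other 2 listed Ccrl2 windows held none. Ccr1 held a kappa-B match at -74 and a C/EBP match at -131. Ccr2 held a C/EBP match at -243 and Ccl3 one at -100. A kappa-B match was present in 8.46% and a C/EBP match in 40.7% of 32851 promoters of the same length. The AP-1 motif TGANTCA (7.81% of promoters), the TATA motif TATAAA (13.6%) and the interferon-stimulated response element (3.44%) had no match in these windows, and no marked match overlapped another motif. In the gene order of that assembly, Ccl2 and Ccl7 are direct neighbours, as are Ccl3 and Ccl4. Ccrl2 lies beside Ltf, a neutrophil granule gene.

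Each set of arrays (a model in a tissue) had its own lowest value, a floor from 9.68 to 32.5, and its own median intensity (76.2 to 145 per array), so levels are compared only within a set. Intensities are the deposited linear values, and the count of arrays per group is what limits precision. The log2 ratio of 3′ to 5′ beta-actin signal, a measure of RNA integrity, separated the codes in LPS blood (1.58 ± 0.0587 SD in 12 c arrays, 1.07 ± 0.105 in 10 x arrays) and in trauma-hemorrhage blood (1.99 ± 0.135 and 1.42 ± 0.191 in 11 each). In the other 4 sets its ranges overlapped. With this ratio as a covariate, no member passed the test in either of those blood sets, from 5 in each without it, and the total called fell from 4181 to 1752 probe sets in LPS blood and from 8202 to 27 in trauma-hemorrhage blood. In trauma-hemorrhage blood the covariate moved Ccl3 from 0.79 to 0.73, Ccl4 from 0.89 to 0.88 and Ccl5 from 0.56 to 0.79 (log2, x minus c). It moved Ccl7 from -0.26 to -0.11 and the third Ccr2 probe set from 0.33 to 0.06. Its part in the member differences cannot be told apart from the code there. In burn blood, replicates 4 and 5 of the c arrays of letter E stood apart in several members. In LPS blood replicate 2 of x with letter A and replicate 5 of x with letter E did. Results are given with and without these arrays where they matter. The arrays stood apart in values of these same genes, so results without them give no independent support. In bulk samples, fewer cells of a type and less RNA per cell cannot be told apart.

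Ccrl2 was higher in x than in c arrays in all 6 sets, though in LPS blood it was not called within letter A. Ccr2, through its main probe set, was lower in 4 of 6. Ccl3, Ccl4 and Ccl5 were higher in x in trauma-hemorrhage spleen and moved less, or the other way, elsewhere. A difference is given as log2 intensity, x minus c, with its standard error (SE), and is called where limma's adjusted p over all 15838 probe sets tested is under 0.05. A fold is 2 to the power of that difference, on the scale of log2(intensity + 16), and understates the change of dim genes. A gene with several probe sets is written of by its main one, which has the highest mean over all 98 arrays. In burn and trauma-hemorrhage spleen another Ccr2 probe set was brighter, and its values are given with those of Ccr2.

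**Figure D1:**
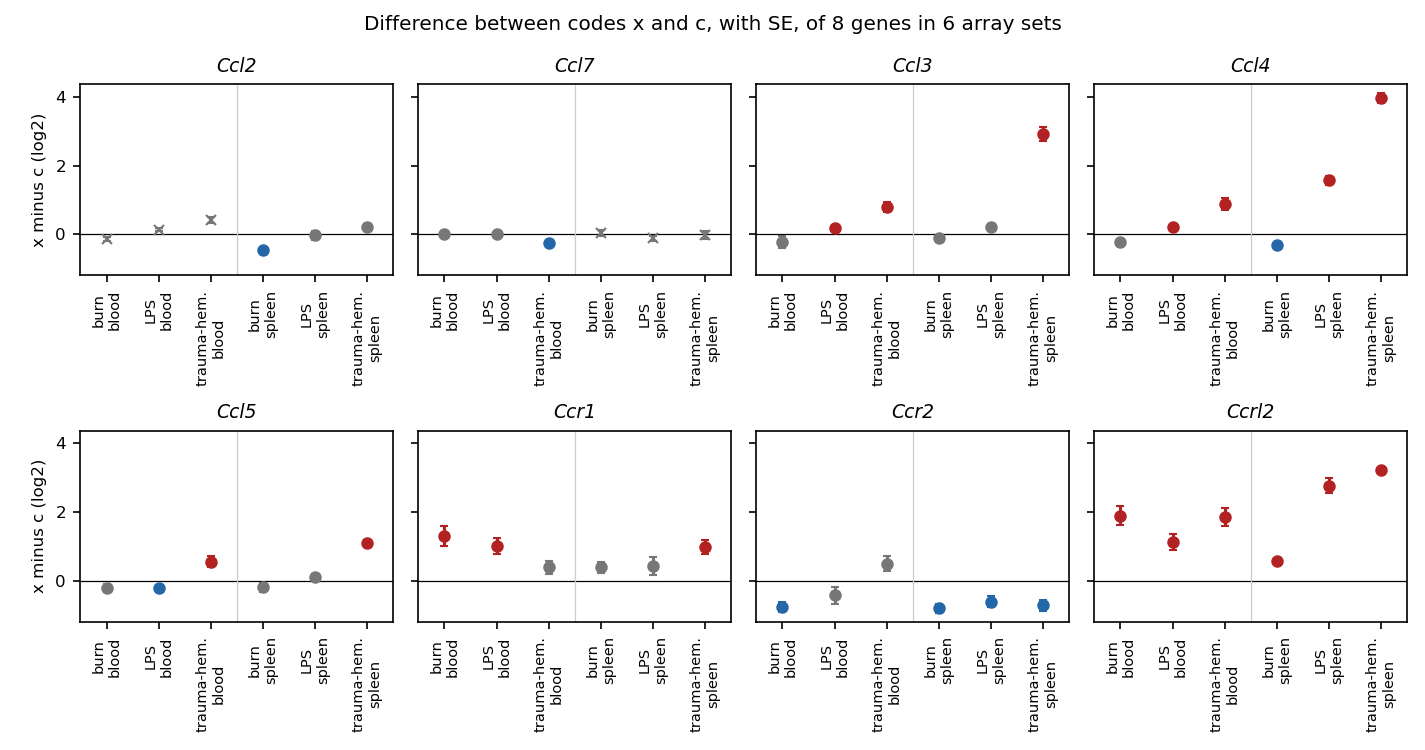
Difference between codes x and c (log2 intensity, vertical axis) of each gene's main probe set in 6 array sets, with SE as bars. Red points were called higher in x, blue points lower and grey points not called, and crosses mark probe sets that were too dim to be tested; Ccrl2 is red in all 6 sets and Ccl4 reaches 3.96 in trauma-hemorrhage spleen.

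Of 7 genes tested in each set, the counts called were read against the share of all probe sets. In trauma-hemorrhage spleen 6 were called, 5 higher and 1 lower, where 27.3% of probe sets were called, 10.9% higher and 16.5% lower. In burn spleen 4 were called, 1 higher and 3 lower, beside 18.0% of probe sets, 9.93% higher and 8.03% lower. In LPS spleen 3 were called, 2 higher and 1 lower, where only 3.45% of probe sets were called, 2.59% higher and 0.859% lower. In LPS blood 5 were called, 4 higher and 1 lower, beside 26.4%, of which 13.4% were higher and 13.0% lower. Trauma-hemorrhage blood also had 5 called, 4 higher and 1 lower, but there 51.8% of all probe sets passed, 20.5% higher and 31.3% lower. Burn blood had 3, with 2 higher and 1 lower, beside 18.2%, 7.71% higher and 10.5% lower. The median difference of the 7 tested genes was 1.09 in trauma-hemorrhage spleen, 0.21 in LPS spleen and -0.19 in burn spleen, against medians of all tested probe sets between -0.02 and -0.01. In blood it was 0.56 for trauma-hemorrhage, 0.20 for LPS and -0.21 for burn, against medians of all tested between -0.05 and 0.00.

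Ccl4 showed the widest separation of any member, in trauma-hemorrhage spleen. The 5 x arrays read 2715, 1806, 2135, 2721 and 2855, and the 6 c arrays ran from 97.7 through a median of 118 to 176. The groups lay far apart, with a difference of 3.96 ± 0.14 (15.6-fold, adjusted p = 2.2e-10). In LPS spleen the 6 x arrays ran from 483 through 524 to 700 and the 6 c arrays from 160 through 178 to 265, again without overlap (1.57 ± 0.13, 2.97-fold, adjusted p = 2.6e-06). Burn spleen went the other way: 6 x arrays lay between 96.2 and 125 (median 115), below all 5 c arrays at 160, 137, 140, 138 and 145. That difference was small, at -0.31 ± 0.08 (1.24-fold lower, adjusted p = 0.0104), and missed the threshold at adjusted p = 0.0937 when all spleen groups shared 1 fit.

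Ccl3, the neighbour of Ccl4, was called in 1 spleen set, trauma-hemorrhage. Its c arrays there were dim, from 13.1 through 20.5 to 35.8, close to the floor of 11.1 in that set. The 5 x arrays read 197, 429, 167, 344 and 479, all above every c array (2.92 ± 0.21, 7.56-fold, adjusted p = 1.5e-07). In LPS spleen, where Ccl4 was called, Ccl3 ran from 137 to 158 (median 146) in x and from 107 to 140 (median 132) in c, a difference of 0.21 ± 0.07 that was not called (adjusted p = 0.202). In burn spleen it ran from 47.5 through 60.0 to 73.7 in x, and the c arrays read 67.4, 63.5, 77.0, 58.8 and 65.5 (-0.10 ± 0.09, adjusted p = 0.484). Over the 34 spleen arrays, with each set centred, Ccl3 and Ccl4 correlated at Pearson r = 0.91, and at 0.16 once each group was centred, so the likeness lay between groups. Over the 64 blood arrays the same values were 0.83 and 0.72. These correlations describe arrays that share sets and normalization.

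**Figure D2:**
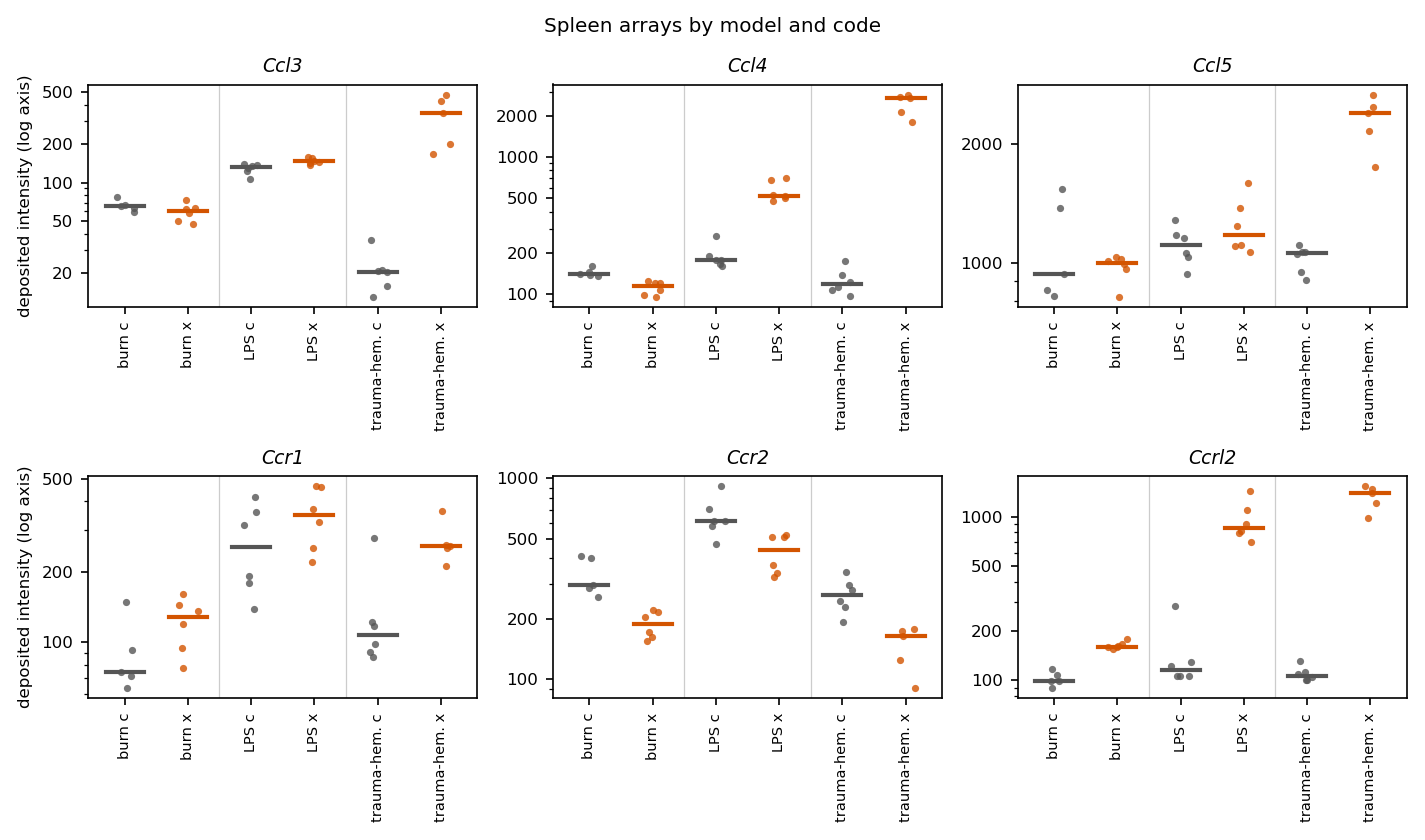
Deposited intensity (log axis) of 6 genes in each spleen array, grouped by model and code (c grey, x orange), with the group median as a bar; levels are comparable only within a model. The x arrays of trauma-hemorrhage lie above all its c arrays for Ccl3, Ccl4, Ccl5 and Ccrl2, and those of burn and trauma-hemorrhage lie below all c arrays for Ccr2.

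In blood both genes differed less, and most in trauma-hemorrhage. Ccl4 ran there from 160 through 294 to 913 in 11 x arrays and from 123 through 158 to 200 in 11 c arrays (0.89 ± 0.19, 1.85-fold, adjusted p = 5.3e-04). The ranges overlapped slightly over both letters, and not within either letter. Ccl3 ran from 172 through 214 to 451 in x and from 97.7 through 122 to 191 in c (0.79 ± 0.15, 1.73-fold, adjusted p = 1.5e-04), with overlap only through c arrays of letter E. In LPS blood the differences were 0.22 ± 0.06 for Ccl4 (adjusted p = 0.0104) and 0.20 ± 0.07 for Ccl3 (adjusted p = 0.0407), both with overlapping ranges. Ccl3 lost its call when any of 11 of the 22 arrays was left out, and both genes lost theirs when all blood groups shared 1 fit (adjusted p = 0.225 for Ccl4 and 0.325 for Ccl3). In burn blood neither was called over both letters (Ccl4 -0.23 ± 0.10, adjusted p = 0.13), though Ccl4 was called lower in x within letter E, as given below. The highest burn array for both was replicate 4 of c with letter E, at 710 for Ccl3 and 1145 for Ccl4, against medians of 208 and 617 in that group. Without it and replicate 5, the differences were -0.03 for Ccl3 (adjusted p = 0.87) and -0.17 for Ccl4 (adjusted p = 0.104).

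Ccl5 was bright in every set and was higher in x in trauma-hemorrhage in both tissues. In spleen the x arrays read 2482, 2391, 1752, 2667 and 2159, and the c arrays ran from 903 through 1059 to 1111. The groups did not overlap (1.09 ± 0.10, 2.13-fold, adjusted p = 1.1e-06). The T cell list moved the other way in those spleens, with 0 of its 11 measured markers higher and 8 lower, and mean list levels of 8.04 to 8.36 log2 in x and 8.69 to 8.93 in c. Of 9 NK cell markers 1 was higher and 5 were lower (7.65 to 7.90 in x, 7.92 to 8.11 in c). The part of these cells in the Ccl5 difference was not tested. In trauma-hemorrhage blood Ccl5 ran from 668 through 794 to 1068 in x and from 297 through 452 to 1330 in c (0.56 ± 0.16, 1.47-fold, adjusted p = 0.0049). The overlap came from 1 array, replicate 1 of c with letter E at 1330, where the next c array read 501. Without that array the difference was 0.69. LPS blood went the other way, from 614 through 759 to 1000 in x and from 704 through 952 to 1131 in c (-0.22 ± 0.07, adjusted p = 0.0283), a call that leaving out any of 5 arrays ended. Platelet markers, which can also carry Ccl5 transcripts, were higher there for 6 of 9 and lower for none, with mean levels of 10.1 to 10.6 in x and 9.71 to 10.3 in c. Ccl5 was not called in burn blood (-0.21 ± 0.11, adjusted p = 0.205). It was called there, at -0.30 (adjusted p = 0.00835), without the pair of burn arrays that stood apart in these same data, which is no independent support.

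Ccl2 and Ccl7, the monocyte attractants, gave differences under 0.5 in every set, and each passed the dimness filter in 1 tissue. Ccl2 lay below the dimness filter in all 3 blood sets, and Ccl7 in all 3 spleen sets. In burn spleen Ccl2 was lower in x, from 140 through 161 to 188 against c arrays of 256, 253, 222, 187 and 211 (-0.46 ± 0.09, 1.38-fold lower, adjusted p = 0.00246), and the ranges met at a single pair of arrays. It was not called in LPS spleen (-0.03 ± 0.13, adjusted p = 0.998) or trauma-hemorrhage spleen (0.21 ± 0.11, adjusted p = 0.203). Ccl7 was lower in x in trauma-hemorrhage blood, from 79.0 through 105 to 125 against 105 through 125 to 150 (-0.26 ± 0.06, 1.19-fold lower, adjusted p = 0.00157). The ranges overlapped, and in the other blood sets its difference was 0.02 ± 0.05 and 0.00 ± 0.05. With no filter, Ccl2 in trauma-hemorrhage blood was higher in x at all 11 arrays relative to the c mean (0.42 ± 0.09, adjusted p = 7.4e-04). There it read 42.4 to 82.1 in x and 34.3 to 51.9 in c. In LPS blood it was also higher in x with no filter (0.14 ± 0.04, 9 of 10 x arrays, adjusted p = 0.0228), and in burn blood it was not called (-0.13 ± 0.06, adjusted p = 0.184). Ccl7 was called in no spleen set with no filter, at adjusted p from 0.7 to 0.972.

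Ccrl2 was the single member called in the same direction in all 6 sets. In trauma-hemorrhage spleen the x arrays read 1534, 1395, 985, 1204 and 1483 and the c arrays lay between 101 and 131 (median 107), a difference of 3.21 ± 0.11 (9.28-fold, adjusted p = 2.2e-10). In LPS spleen the x arrays ran from 703 through 856 to 1427 and the c arrays from 107 through 115 to 284 (2.77 ± 0.22, 6.81-fold, adjusted p = 1.8e-06). In burn spleen the x arrays lay between 155 and 179 (median 160), above c arrays of 99.7, 99.2, 108, 89.6 and 117 (0.59 ± 0.08, 1.5-fold, adjusted p = 5.1e-05). The groups did not overlap in any of the 3 spleen sets. In spleen the neutrophil list rose for 7 of 13 measured markers in LPS and 6 of 13 in trauma-hemorrhage, with no marker lower. In burn spleen 0 were higher and 2 were lower, while Ccrl2 was higher there too. The mean level of the neutrophil list was 8.54 to 9.28 in x and 8.50 to 9.43 in c in burn spleen, 9.62 to 10.2 and 8.71 to 9.65 in LPS spleen, and 8.91 to 9.59 and 8.27 to 9.22 in trauma-hemorrhage spleen. The part of these cells in the Ccrl2 difference was not tested.

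In blood, Ccrl2 was called over both letters in each model, with single arrays out of line. In LPS blood it was called within letter E and not within letter A, as given below. Burn x arrays ran from 1019 through 1240 to 1544 and c arrays from 216 through 247 to 2195 (1.90 ± 0.28, 3.73-fold, adjusted p = 7.5e-05). Only replicates 4 and 5 of c with letter E, at 2195 and 747, lay above 266, and without them the difference was 2.25. Trauma-hemorrhage x arrays ran from 450 through 1810 to 4104 and c arrays from 262 through 325 to 872 (1.85 ± 0.25, 3.61-fold, adjusted p = 6.5e-06). In LPS blood x ran from 273 through 707 to 1760 and c from 248 through 288 to 657 (1.12 ± 0.23, 2.17-fold, adjusted p = 9.6e-04), and 7 of 10 x arrays lay above the c mean. With the beta-actin ratio as a covariate the Ccrl2 difference was 1.22 in LPS blood (adjusted p = 0.309) and 1.92 in trauma-hemorrhage blood (adjusted p = 0.181), so its size stayed while its call was lost. Titles fall into a pair of number runs in each blood set and in LPS spleen. Within those of LPS blood the Ccrl2 difference was 1.73 and 0.56, the second not called (adjusted p = 0.288). In the first run of trauma-hemorrhage blood it was 1.75 and not called (adjusted p = 0.0512). The neutrophil list was higher for 8, 11 and 7 of 13 markers in burn, LPS and trauma-hemorrhage blood, with 2 lower in the last. Its mean level ran from 9.68 to 10.2 in x and 8.20 to 11.1 in c in burn blood, from 9.02 to 11.1 and 8.44 to 10.2 in LPS blood, and from 9.94 to 11.6 and 8.93 to 10.2 in trauma-hemorrhage blood.

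**Figure D3:**
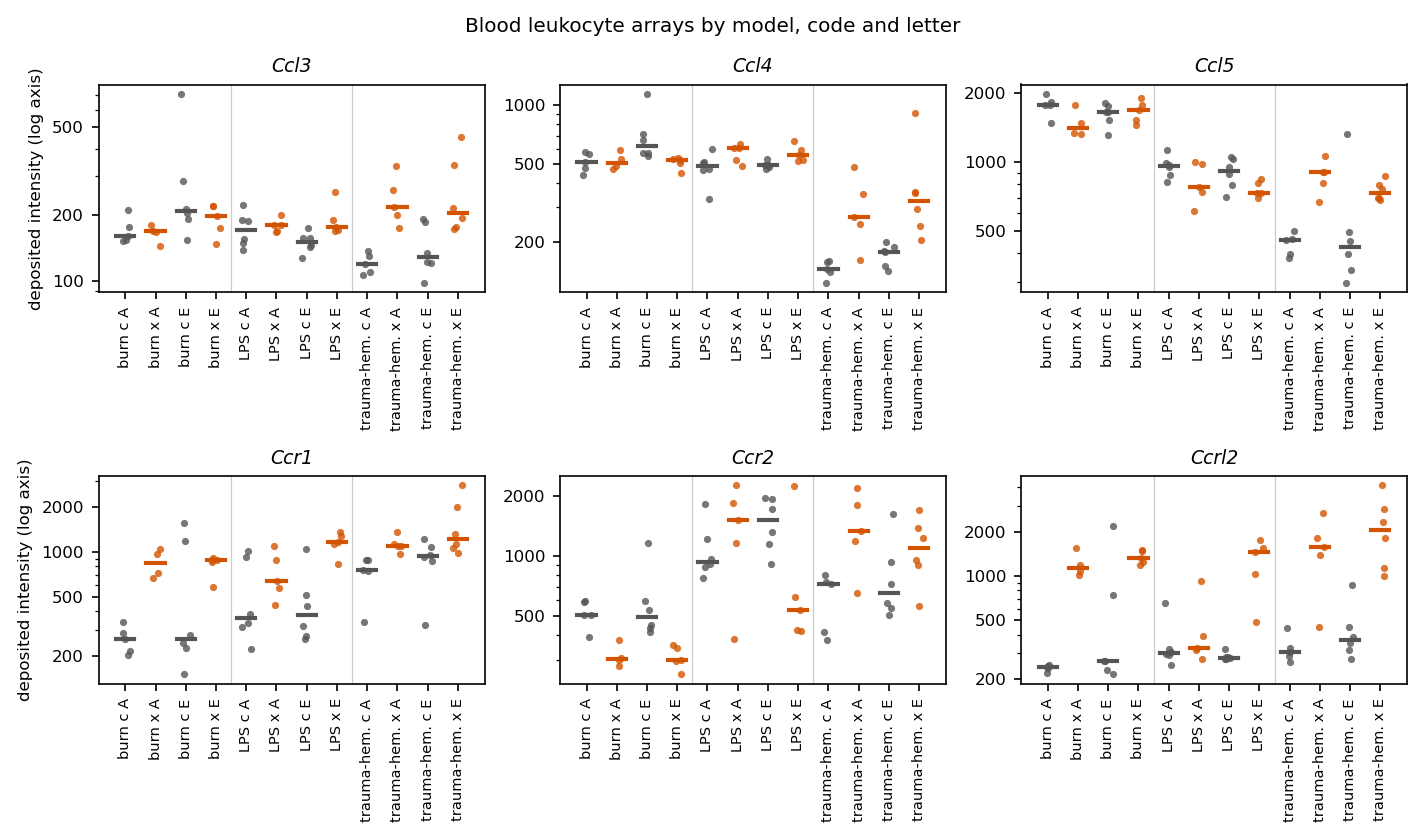
Deposited intensity (log axis) of 6 genes in each blood array, grouped by model, code (c grey, x orange) and letter (A or E), with the group median as a bar; levels are comparable only within a model. A pair of c arrays of letter E in burn reads 1190 and 1564 for Ccr1 beside 151 to 277 in the rest of that group, and a single x array of letter E in LPS reads 2246 for Ccr2.

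Ccr1, the receptor of Ccl3 and Ccl5 on neutrophils and monocytes, was higher in x in burn and LPS blood and in trauma-hemorrhage spleen. In burn blood x arrays ran from 584 through 878 to 1042 and c arrays from 151 through 260 to 1564 (1.30 ± 0.30, 2.46-fold, adjusted p = 0.00365). The c arrays reached above x only through replicates 4 and 5 of letter E, at 1190 and 1564, and without them the difference was 1.68. In LPS blood x ran from 437 through 982 to 1352 and c from 222 through 358 to 1040 (1.01 ± 0.23, 2.02-fold, adjusted p = 0.00227), with 3 c arrays high at 1017, 925 and 1040. With the beta-actin ratio as a covariate that difference was -0.0036 (adjusted p = 0.998), and within the runs of title numbers it was 1.5 and, not called, 0.55 (adjusted p = 0.397). The neutrophil list, given above, was also higher in x in both sets. In trauma-hemorrhage blood x ran from 963 through 1135 to 2792 and c from 323 through 884 to 1219, and the difference of 0.40 ± 0.19 was not called (adjusted p = 0.0872). On values without quantile normalization it was 0.74 and called (adjusted p = 0.00717).

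In trauma-hemorrhage spleen Ccr1 read 365, 258, 211, 253 and 261 in x and ran from 86.5 through 107 to 279 in c (0.98 ± 0.21, 1.98-fold, adjusted p = 0.00261). The overlap came from replicate 5 of c at 279, where the other 5 c arrays lay at or below 122. Burn spleen (0.40 ± 0.17, adjusted p = 0.113) and LPS spleen (0.45 ± 0.26, adjusted p = 0.654) were not called. The dimmer Ccr1 probe set stood at the floor of 27.3 in 7 of 11 burn blood c arrays and read 63.2 to 165 in the 9 x arrays, and the floor limits its fitted difference of 1.20 ± 0.28. It lay below the filter there, and with no filter its adjusted p was 0.00631, with all 9 x arrays above the c mean. In LPS blood the dimmer probe set also lay below the filter, at 37.1 to 182 in x and 35.8 to 263 in c. With no filter it was not called there (0.40 ± 0.32, adjusted p = 0.43). In trauma-hemorrhage blood it was tested and not called, with differences of -0.02 to 0.20 when single arrays were left out. In trauma-hemorrhage spleen the dimmer probe set differed by 0.54 ± 0.21 and was not called (adjusted p = 0.0712).

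Ccr2, the receptor that monocytes use to leave bone marrow, was lower in x in burn blood and in all 3 spleen sets. In burn blood the 9 x arrays ran from 254 through 301 to 379, below all 11 c arrays, which ran from 392 through 505 to 1165 (-0.76 ± 0.14, 1.69-fold lower, adjusted p = 5.9e-04). In burn spleen x ran from 156 through 189 to 221 and the c arrays read 404, 257, 295, 286 and 412 (-0.80 ± 0.13, 1.74-fold lower, adjusted p = 4.7e-04). The x arrays of trauma-hemorrhage spleen read 175, 164, 179, 125 and 90.5 and its c arrays ran from 193 through 263 to 342 (-0.71 ± 0.15, 1.63-fold lower, adjusted p = 0.00243). None of these 3 comparisons overlapped. In LPS spleen x ran from 324 through 440 to 525 and c from 471 through 617 to 916 (-0.60 ± 0.15, 1.52-fold lower, adjusted p = 0.0351), with some overlap. That call ended when any of 7 of its 12 arrays was left out. In LPS blood the main probe set was not called over both letters, at 384 through 893 to 2269 in x and 779 through 1184 to 1968 in c (-0.42 ± 0.26, adjusted p = 0.245).

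The second Ccr2 probe set was brighter than the main one in burn spleen (medians of 556 against 295 in c and 326 against 189 in x) and in trauma-hemorrhage spleen (373 against 263 in c and 247 against 164 in x). It was lower in x in LPS blood (-1.28 ± 0.31, 2.43-fold lower, adjusted p = 0.00396), and in the spleen sets differed in the same direction as the main one, at -0.94 ± 0.16 in burn (adjusted p = 6.8e-04), -0.67 ± 0.14 in trauma-hemorrhage (adjusted p = 0.00238) and -0.70 ± 0.26 in LPS (adjusted p = 0.242, and 0.0442 with the runs of title numbers as blocks). In burn blood the second fell below the filter, at 39.1 through 47.6 to 62.9 in x and 54.6 through 102 to 222 in c, and with no filter it was lower in x (-0.87 ± 0.16, adjusted p = 0.00136). The third passed the filter in burn blood and was not called, at 74.7 to 91.1 in x and 71.7 to 94.9 in c. Its difference there stayed between -0.04 and 0.00 with single arrays left out. In LPS blood it was not called over both letters, at 79.6 to 140 in x and 91.1 to 174 in c. It was too dim to be tested in burn and trauma-hemorrhage spleen and was not called in LPS spleen (0.06 ± 0.10, adjusted p = 0.968). In trauma-hemorrhage blood the probe sets leaned the other way: the main one by 0.50 ± 0.21 (adjusted p = 0.0546; 0.83 and called, adjusted p = 0.00571, on values without quantile normalization) and the third by 0.33 ± 0.07 (adjusted p = 6.1e-04), while the second was too dim to be tested (0.09 ± 0.17). Markers of monocytes and macrophages, the cells that commonly carry Ccr2, gave these counts. Of 11 measured in trauma-hemorrhage blood 6 were higher and 2 lower, with mean levels of 9.44 to 10.2 in x and 8.68 to 9.58 in c. In LPS blood 1 of 11 was higher and 3 were lower (9.27 to 9.92 in x, 9.25 to 9.98 in c). Of 10 measured in burn spleen 2 were higher and 5 lower, with mean levels of 8.59 to 8.88 in x and 8.53 to 9.0 in c. In burn blood 3 of 10 were higher and 1 was lower (9.49 to 9.90 in x, 8.97 to 9.96 in c), and in trauma-hemorrhage spleen 2 were higher and 4 lower (8.54 to 8.84 and 8.29 to 8.59). In LPS spleen 2 were higher and 1 lower (9.09 to 9.23 and 8.92 to 9.17). Their part in the Ccr2 difference was not tested.

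Within the letters of blood, the members differed between codes as follows. In burn blood 3 genes were called for letter A (14.5% of probe sets called) and 3 for letter E (5.91%), and Ccrl2 and Ccr2 were in both sets. Ccr1 was called for letter A alone and Ccl4 for letter E alone. Ccl4 was lower in x there, at 450 to 536 against 547 to 1145 in c, and leaving out any of 7 arrays ended its call. For letter A, Ccrl2 read 1186, 1544, 1019 and 1080 in x and 247, 242, 249, 238 and 220 in c (2.21 ± 0.42, adjusted p = 0.00138). In trauma-hemorrhage blood 6 were called for letter A (37.1%) and 4 for letter E (29.1%), with Ccl3, Ccl4, Ccl7 and Ccrl2 in both. In LPS blood 1 gene, Ccl4, was called for letter A (11.8%) and 4 for letter E (14.8%): Ccl3, Ccr1 and Ccrl2 higher, and Ccr2 lower.

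In LPS blood, Ccrl2 and Ccr2 gave different values in the letters. With letter E, Ccrl2 read 1036, 1450, 1536, 1760 and 485 in x and 274 to 319 (median 280) in c, without overlap (1.90 ± 0.33, 3.73-fold, adjusted p = 4.1e-04). With letter A it read 391, 930, 315, 273 and 323 in x and 248 to 657 (median 301) in c (0.34 ± 0.33, adjusted p = 0.56). Ccr2 with letter E read 621, 420, 534, 423 and 2246 in x and 916 to 1968 (median 1527) in c (-1.13 ± 0.36, 2.18-fold lower, adjusted p = 0.0376), and 4 of 5 x arrays lay below all c arrays. Leaving out any of 8 of these 11 arrays ended that call. With letter A it read 1852, 384, 1165, 1523 and 2269 in x and 779 to 1828 (median 939) in c (0.28 ± 0.36, adjusted p = 0.675). In each letter 1 x array leaned toward the other letter: replicate 2 of letter A had high Ccrl2 and low Ccr2, and replicate 5 of letter E had the reverse. Their Ccrl2 values fell short of the other letter's remaining x arrays, at 930 against 1036 or more and 485 against 391 or less. Whether the labels of this pair were exchanged was not tested, and all values by letter in LPS blood take the labels as given. The difference between letters was 1.56 ± 0.46 for Ccrl2 (adjusted p = 0.436) and -1.41 ± 0.51 for Ccr2 (adjusted p = 0.528), so neither was called. Without that pair of arrays the differences between letters were 2.27 and -2.17, and both were called. The pair was chosen on these same values, so that test gives no independent support.

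**Figure D4:**
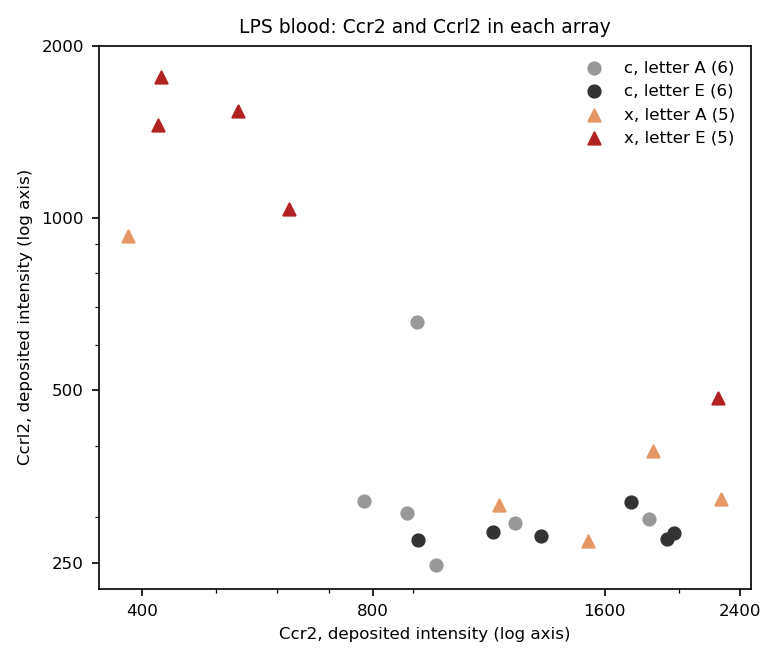
Ccrl2 (vertical) against Ccr2 (horizontal) in each of 22 LPS blood arrays, both as deposited intensity on log axes, with c arrays as circles, x arrays as triangles and letters by shade. Of the 5 x arrays of letter E, 4 lie at the upper left, with Ccrl2 from 1036 to 1760, and 1 x array of each letter lies nearer the other letter's x arrays.

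No member differed between letters E and A averaged over codes. The count was 0 of 7 in each model, where 0%, 0% and 0.0189% of probe sets were called in burn, LPS and trauma-hemorrhage blood by limma. Over all probe sets 882, 828 and 1658 had an unadjusted p under 0.05. The largest estimates were 0.59 ± 0.23 for Ccrl2 in LPS blood (adjusted p = 0.945) and 0.48 ± 0.28 for Ccrl2 in burn blood (adjusted p = 0.875). Whether the code difference depended on the letter was called for 0 of 7 in each model too, where 0.0126%, 0% and 0% of probe sets were called, and 1900, 1135 and 1223 had an unadjusted p under 0.05.

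Differences between models were tested on the x minus c values themselves. In each tissue a model is its own array set, so a difference between models cannot be told apart from one between sets. The LPS spleen titles carry a mark v2 that the labels do not explain. That set had a floor of 25.9, against 9.68 in burn and 11.1 in trauma-hemorrhage spleen. In trauma-hemorrhage spleen the Ccl3 c arrays, at 13.1 to 35.8, reached below the LPS floor. In spleen, Ccl4 differed between all 3 pairs of models. Its difference was larger in trauma-hemorrhage than in LPS by 2.39 ± 0.18 (adjusted p = 6.8e-12) and than in burn by 4.27 ± 0.18 (adjusted p = 4.6e-19), and lower in burn than in LPS by -1.88 ± 0.18 (adjusted p = 3.4e-09). Ccrl2 separated burn from both other models, by -2.18 ± 0.24 against LPS (adjusted p = 3.3e-08) and by 2.63 ± 0.24 in trauma-hemorrhage over burn (adjusted p = 1.5e-10). It did not separate trauma-hemorrhage from LPS (0.45 ± 0.24, adjusted p = 0.242). Ccl3 was larger in trauma-hemorrhage than in LPS by 2.71 ± 0.21 (adjusted p = 1.1e-11), and Ccl5 by 0.98 ± 0.18 (adjusted p = 1.6e-04). Ccr1 and Ccr2 differed in no spleen pair past the threshold. In all, 5 of 7 genes were called for trauma-hemorrhage against burn (23.8% of probe sets), 3 against LPS (13.4%) and 2 for burn against LPS (10.1%).

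In blood the models differed for the ligands and Ccr2. Trauma-hemorrhage exceeded burn by 1.0 ± 0.21 for Ccl3 (adjusted p = 8.2e-05), 1.11 ± 0.19 for Ccl4 (adjusted p = 5.7e-06) and 0.77 ± 0.17 for Ccl5 (adjusted p = 3.2e-04). The Ccr2 difference was higher by 1.26 ± 0.32 (adjusted p = 0.00135), and that of Ccr1 was lower by -0.90 ± 0.36 (adjusted p = 0.0393). Ccrl2 did not differ past the threshold between any pair. Of 7 genes 6 were called for trauma-hemorrhage against burn (43.9% of probe sets), 5 against LPS (48.4%) and 0 for burn against LPS (21.9%; 4839 probe sets had an unadjusted p under 0.05 by limma). Among letter E arrays, the x minus c difference was smaller in blood than in spleen for Ccl4 in LPS by -1.41 ± 0.16 (adjusted p = 3.9e-06). In trauma-hemorrhage this held for Ccl4 at -3.07 ± 0.32 (adjusted p = 4.8e-07), Ccl3 at -2.20 ± 0.33 (adjusted p = 4.7e-05) and Ccrl2 at -1.29 ± 0.37 (adjusted p = 0.0134). Of 6 genes tested, 3 were called in trauma-hemorrhage (25.9%), 1 in LPS (8.29%) and 0 in burn (3.46%; 2499 probe sets had an unadjusted p under 0.05). Blood and spleen were normalized separately, so these values set differences, not levels, side by side.

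Of 17 other CC chemokines listed, 13 had a probe set of their own, and 7 to 10 were tested in a set. In burn spleen 2 were higher and none was lower, in trauma-hemorrhage spleen 1 was higher and 1 lower, and in LPS spleen none of 10 was called. In burn, LPS and trauma-hemorrhage blood the counts were 1 higher of 9, 0 of 9, and 1 higher and 3 lower of 8. Ccl9, a myeloid chemokine that signals through Ccr1, was higher in burn spleen (0.48 ± 0.11, adjusted p = 0.00765), trauma-hemorrhage spleen (0.75 ± 0.18, adjusted p = 0.0055) and trauma-hemorrhage blood (1.15 ± 0.12, adjusted p = 2.0e-07). Ccl6, another myeloid Ccr1 ligand of the same cluster, was higher in burn blood at 0.87 ± 0.18 (adjusted p = 0.0016) and burn spleen at 0.59 ± 0.16 (adjusted p = 0.0196). It was lower in trauma-hemorrhage blood (-0.66 ± 0.17, adjusted p = 0.00227) and spleen (-1.11 ± 0.25, adjusted p = 0.00339), where Ccl3 and Ccl4 were higher.

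Of 11 other CC receptors listed, 10 had a probe set of their own and 6 to 8 were tested. In burn, LPS and trauma-hemorrhage blood 0, 2 and 1 of 8 were higher, and 2, 1 and 2 were lower. Burn spleen had 0 higher and 1 lower of 7, LPS spleen 0 called of 7, and trauma-hemorrhage spleen 1 higher and 1 lower of 6. Ccr6, on B cells and Th17 cells, was lower in burn blood (-0.86 ± 0.08, adjusted p = 1.8e-07) and burn spleen (-0.36 ± 0.08, adjusted p = 0.00452), beside B cell markers lower for 7 of 7 and 7 of 8. In trauma-hemorrhage spleen Ccr6 was higher (0.87 ± 0.14, adjusted p = 3.5e-04), although B cell markers were lower for 6 of 8. Ccr9, a receptor of gut-homing cells, was lower there (-0.73 ± 0.12, adjusted p = 2.7e-04) and in LPS blood (-0.52 ± 0.10, adjusted p = 6.5e-04). Of 22 genes of signaling below these receptors, 19 were measured. In LPS blood 6 of 19 were higher and none was lower, among them Grk6, a kinase that turns receptors off (0.45 ± 0.06, adjusted p = 9.2e-06), the GTPase Rac2 (0.62 ± 0.08, adjusted p = 1.1e-05) and the inhibitory G protein subunit Gnai2 (0.45 ± 0.06, adjusted p = 1.2e-05). In burn blood 1 was higher and 3 lower of 19, in trauma-hemorrhage blood 4 and 7 of 19, and in LPS spleen 0 of 17. In burn spleen 2 were higher of 16, and in trauma-hemorrhage spleen 3 were higher and 5 lower of 17.

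The genes most like each member across arrays, after each set was centred, were named by Pearson r over 64 blood or 34 spleen arrays. Arrays of a set share normalization and code, and these values are descriptions. Ccrl2 was closest to Acod1, the itaconate-producing enzyme of activated myeloid cells, in both tissues (0.92 in blood, 0.97 in spleen), followed by Cd14 in blood (0.91) and N4bp1 in spleen (0.96). Ccr1 was closest to Arg2 (0.96) and Clec4d (0.95) in blood, and to Cxcr2 (0.89) and Hp (0.89) in spleen. For Ccr2 the closest were Ms4a6c (0.89) and C1galt1c1 (0.82) in blood, and Naaa (0.82) and Abcg3 (0.81) in spleen. Ccl4 was closest to Tifa (0.81) in blood and Cd274, the inhibitory ligand PD-L1, in spleen (0.97). Ccl3 was closest to Map3k8 (0.78) in blood and Ifit3 (0.95) in spleen, and Ccl5 to Gzma (0.85), a cytotoxic granule protease, in blood and Dhx58 (0.88) in spleen. The closest genes to Ccl7 in blood were Il9 (0.85) and B3gnt3 (0.83), and to Ccl2 in spleen Dnm1 (0.90) and Ntrk2 (0.79). Among the members, Ccrl2 and Ccr2 ran against each other, at -0.37 in blood and -0.72 in spleen, and Ccrl2 and Ccr1 ran together, at 0.67 and 0.59. With each group centred, the values for Ccrl2 and Ccr2 were -0.388 in blood and -0.425 in spleen. Those for Ccrl2 and Ccr1 were then 0.402 in blood and 0.168 in spleen.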

How the data were processed

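The deposited values were linear intensities, 1 per probe set and array. The authors' summary method and scaling are not given in the sources used. The labels put the 98 arrays into 18 groups of 4 to 6, by model, tissue, letter and code. The platform's gene table gave 1 symbol to 20380 of 22626 probe sets, several to 691 and none to 1555, after 64 control probe sets were left out. Of its 21084 rows, 20364 matched the RefSeq table of GRCm38.p6, which served to update symbols and to read gene order.

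Intensities were taken as log2(value + 16) and quantile normalized within each tissue. The dimmest 30% of probe sets in a set, by mean, were not tested there, and each probe set was tested on its own. Differences were tested two-sided by lmFit, contrasts.fit and trended eBayes of limma (version 3.58.1, R 4.3.3), 1 term per group, with Benjamini-Hochberg adjustment over all probe sets tested and a threshold of 0.05. The 27 comparisons were x minus c in each set and within each blood letter, E minus A, letter by code, and differences between models and tissues. The steps were tested on simulated data.

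All 11 member probe sets were described. At most the 3 genes with the smallest p of each pathway list, and the 2 genes most like each member in each tissue, were named. The members and lists were chosen with earlier results of these data known. The alternatives were other pseudocounts, normalizations and filters, 1 probe set per gene, array weights, a fit of all groups of a tissue, the run of title numbers as a block, the beta-actin ratio as a covariate, a burn blood pair left out, and each array left out in turn. Each run alone and an LPS blood pair left out were chosen after seeing the data. The burn blood pair was also set apart by values in these data.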

Additional observations from a re-analysis of the deposited data

Results flagged for a closer look

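Single arrays were marked where the highest or lowest log2 value of a group lay far from the others by Dixon's test. Of 144 groups tested over the 8 genes, 16 had such an array, and chance alone marks about 1 in 20. Ccl3 read 710 in burn blood c_E replicate 4 and 77.0 in burn spleen c_E replicate 3. Ccl4 read 913 in trauma-hemorrhage blood x_E replicate 3. Ccl5 read 1330 in trauma-hemorrhage blood c_E replicate 1. It was also marked high in x_E replicate 5, where the deposited 794 lay inside the group's deposited range of 680 to 869. The marks rest on normalized log2 values, so that array was extreme only after normalization. Ccl7 was low at 92.7 in burn blood x_A replicate 1 and high at 129 in LPS blood c_E replicate 3. Ccr1 was low at 584 in burn blood x_E replicate 5, at 338 in trauma-hemorrhage blood c_A replicate 3 and at 323 in c_E replicate 2, and high at 279 in trauma-hemorrhage spleen replicate 5 of c. Ccr2 read 2246 in LPS blood x_E replicate 5. Ccrl2 was high in LPS blood at 657 (c_A replicate 6), 319 (c_E replicate 6) and 930 (x_A replicate 2), and in LPS spleen at 284 (replicate 2 of c). The 284 still lay below the lowest x array of that set, at 703.

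The x minus c difference itself was tested between models, tissues and blood letters, and 25 of 81 tests of the genes were called by limma's adjusted p. All of the called tests lay between models or tissues, which are also different array sets, and the shares of all probe sets called are given above. In blood, trauma-hemorrhage differed from LPS by 0.59 for Ccl3, 0.66 for Ccl4, 0.78 for Ccl5, -0.26 for Ccl7 and 0.92 for Ccr2. It differed from burn by 1.0 for Ccl3, 1.11 for Ccl4, 0.77 for Ccl5, -0.27 for Ccl7, -0.90 for Ccr1 and 1.26 for Ccr2. In spleen, burn differed from LPS by -1.88 for Ccl4 and -2.18 for Ccrl2. Trauma-hemorrhage spleen differed from LPS by 2.71 for Ccl3, 2.39 for Ccl4 and 0.98 for Ccl5, and from burn by 0.67 for Ccl2, 3.02 for Ccl3, 4.27 for Ccl4, 1.28 for Ccl5 and 2.63 for Ccrl2. Blood differed from spleen by -1.41 for Ccl4 in LPS, and in trauma-hemorrhage by -2.20 for Ccl3, -3.07 for Ccl4 and -1.29 for Ccrl2.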

How the results depend on the processing

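Counts of genes called depended most on the beta-actin ratio and on the small blood comparisons, and the cause was not tested. These are counts of members alone, with no share of all probe sets beside them, so they are not read as results about the members. With the beta-actin ratio the total of probe sets called fell as well in LPS and trauma-hemorrhage blood, as given above. With that ratio as a covariate the counts were 0 in LPS blood, in each of its letters, in trauma-hemorrhage blood and in each of its letters, and 1 for burn against LPS blood. In LPS blood Ccl3 (-0.12) and Ccr1 (-0.0036) then changed sign. On values as deposited LPS blood had 3, its letter A 0 and letter E 2. With no filter LPS letter E had 2, and burn against LPS blood 1. With array weights E minus A in LPS blood had 1, letter by code in LPS blood 2, burn against LPS blood 1, blood against spleen in burn 1 and in LPS 2. In 1 fit per tissue LPS blood had 2, its letter A 0 and burn letter E 1. Without the burn pair, burn against LPS blood had 1 and blood against spleen in burn 2. Without the LPS blood pair, which was chosen on these same values, letter A had 2, E minus A 1 and letter by code 2. Within the first run of title numbers, with fewer arrays, LPS blood had 2 and trauma-hemorrhage blood 0. In that trauma-hemorrhage run Ccl3 was 0.81 (limma's adjusted p = 0.0709), Ccl4 0.79 (0.157), Ccl5 0.37 (0.322), Ccl7 -0.12 (0.384) and Ccrl2 1.75 (0.0512). Ccr2 in the first run of LPS spleen was -0.41 (0.276). Within the second run burn blood had 1 and LPS blood 0, with burn Ccr1 at 1.07 (0.482) and Ccr2 at -0.61 (0.139). Leaving out single arrays gave 0 to 1 for burn against LPS blood (1 without burn c_E replicate 4), 0 to 1 for blood against spleen in burn, 1 to 2 in LPS, 3 to 5 for LPS blood, 0 to 1 for its letter A, 2 to 4 for letter E and 0 to 1 for letter by code. The labels give groups no shared replicate numbers, so no paired analysis was possible; with the run as a block no count of genes changed past 1.5 times. Dim values, of Ccl2 in blood and Ccl7 in spleen, limit what could be tested.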
